A study of Mus musculus with 18 samples.

Results

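The 10 genes described here encode parts of the contractile apparatus and energy supply of skeletal muscle fibres: the myosin heavy chains Myh1, Myh2 and Myh4, skeletal alpha-actin (Acta1), muscle creatine kinase (Ckm), fast troponin T and I (Tnnt3 and Tnni2), the fast myosin light chains Mylpf and Myl1, and the calcium pump Atp2a1. They were chosen by gene symbol, and all 10 were found among the 55469 gene identifiers of the count tables. They were read in 18 RNA-seq libraries, 3 per group, to show how much of their RNA each library held. Each library was described as coming from the lateral and ventral lobes of 1 male mouse. All mice had 1 copy of the TRAMP transgene, which drives the T antigen oncogene in prostate epithelium from the probasin promoter, on a background labelled C56NL/6N. At 10 weeks and at 30 weeks of age there were 3 lines: WT-TRAMP (ELAC2+/+, libraries 1 to 3 and 10 to 12), A537T-TRAMP (ELAC2A537T, libraries 4 to 6 and 13 to 15) and KO-TRAMP (ELAC2-/- through Pb-Cre, which acts in prostate epithelium, libraries 7 to 9 and 16 to 18). Library numbers are those of the table headers. According to the labels, the seminal vesicle, bladder, urethra and adipose tissue were taken off at dissection. Muscle was not named among the tissues removed.

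In skeletal muscle, thick filaments of myosin pull on thin filaments of actin when calcium released from the sarcoplasmic reticulum binds troponin. Fibres that contract fast carry the heavy chains of Myh4 (type IIB), Myh1 (type IIX) or Myh2 (type IIA), whereas slow fibres carry Myh7, the slow troponins and the slow light chains. The prostate itself is built of glands in a stroma rich in smooth muscle, which uses other actin and myosin genes, and striated muscle surrounds the urethra next to it.

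The 3 myosin genes lie side by side on chromosome 11 of GRCm38, with Myh2 at chr11:67171027-67197517, Myh1 at chr11:67200052-67224575 and Myh4 at chr11:67238029-67260446, all on the plus strand. Acta1, at chr8:123891769-123894751 on the minus strand, is shown beside them because its level followed another pattern than theirs. The promoters below run from 250 bases before the RefSeq start to 50 bases after it, 5′ to 3′ on the gene's strand. RefSeq promoters of GRCm38.p6 matched 8 of the 10 genes, all but Tnnt3 and Tnni2. In the 3 myosin promoters the capitals mark a 20-base run that they share, and in Acta1 they mark a CArG box, a motif bound by serum response factor.
Myh1, chr11:67199852-67200151: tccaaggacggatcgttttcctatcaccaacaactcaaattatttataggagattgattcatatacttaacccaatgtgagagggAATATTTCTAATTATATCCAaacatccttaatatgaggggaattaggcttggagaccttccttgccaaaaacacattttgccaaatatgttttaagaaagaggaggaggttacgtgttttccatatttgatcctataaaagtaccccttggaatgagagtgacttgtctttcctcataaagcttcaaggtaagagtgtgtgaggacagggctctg
Myh2, chr11:67170777-67171076: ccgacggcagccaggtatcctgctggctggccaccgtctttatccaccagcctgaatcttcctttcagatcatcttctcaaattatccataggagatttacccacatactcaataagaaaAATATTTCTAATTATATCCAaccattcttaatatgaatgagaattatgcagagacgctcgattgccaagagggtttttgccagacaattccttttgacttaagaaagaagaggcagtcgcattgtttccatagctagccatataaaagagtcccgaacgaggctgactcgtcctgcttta
Myh4, chr11:67237562-67237861: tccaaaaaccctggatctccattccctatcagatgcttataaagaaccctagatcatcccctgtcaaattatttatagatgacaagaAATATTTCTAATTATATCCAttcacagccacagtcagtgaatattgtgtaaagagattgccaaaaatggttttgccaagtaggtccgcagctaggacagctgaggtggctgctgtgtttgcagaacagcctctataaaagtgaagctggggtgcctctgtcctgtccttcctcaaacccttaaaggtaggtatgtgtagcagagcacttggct
Acta1, chr8:123894726-123895025: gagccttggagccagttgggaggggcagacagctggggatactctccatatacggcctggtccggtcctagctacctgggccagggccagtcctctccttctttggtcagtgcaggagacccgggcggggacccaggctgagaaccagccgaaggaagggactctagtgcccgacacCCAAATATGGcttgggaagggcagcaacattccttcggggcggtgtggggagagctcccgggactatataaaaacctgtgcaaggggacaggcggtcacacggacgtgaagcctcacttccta
The shared run was found in 3 of 32851 mouse promoters, those of the 3 myosin genes, and began at base -165 relative to the start of Myh1, -130 for Myh2 and -163 for Myh4. A CArG box was in the promoters of Acta1 and Myh4, and in 1.63% of all promoters of this length. The letters TATAAA, on either strand, were in 5 of the 8 promoters (Myh1, Myh2, Myh4, Acta1 and Myl1) and in 13.6% of all. An E-box (CANNTG) was in 6 of the 8 and in 72.3% of all, and the MEF2 site, an AT-rich motif that overlaps TATAAA in these promoters, was in Myh1 and Myh4 and in 3.19% of all. The sequence of the gene bodies bears on the counts as well. Of all 31-base words in the transcripts, 37.9% of those of Myh1, 32.8% of Myh2 and 30.4% of Myh4 also occurred in another gene, most often another of the 3, so that the reads of these heavy chains cannot be fully told apart. The share was 14.5% for Myl1, all of it with the pseudogene Mylf-ps, 4.11% for Acta1 and at most 0.748% for the other 5. Myh1, Myh2, Ckm and Atp2a1 each overlap a gene on the opposite strand, and reads were counted by strand.

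The libraries held 9380174 to 14830104 reads assigned to genes, and levels across libraries are given as RPM (reads per 1000000 reads assigned to genes). Elac2 (ENSMUSG00000020549.14) was at 24.6 to 31.4 RPM in WT-TRAMP and 23.0 to 27.3 in KO-TRAMP at 10 weeks, and at 22.0 to 27.2 and 21.5 to 24.7 at 30 weeks. Its log2 differences, -0.22 (SE 0.14, adjusted p = 0.808) and -0.19 (SE 0.14, adjusted p = 0.522), were within the spread of the libraries, so gene-level counts did not check the KO-TRAMP label, and the libraries are named by that label. Library 12 lay between libraries 10 and 11 for 97.5% of the 399 genes at which these differed more than 2-fold, and library 18 between libraries 16 and 17 for 99.4% of 1518 genes. In the other groups the highest such share was 83.9% for library 2, 89.5% for library 6, 82.7% for library 9 and 90.5% for library 15. Of the 10 muscle genes, 0 lay between the other libraries of the group in library 2, 0 in library 9 and 2 in library 6. Whether libraries 12 and 18 each hold the RNA of 1 separate mouse was not tested. The KO-TRAMP comparison at 30 weeks is also given without libraries 12 and 18, and the A537T-TRAMP comparison without library 12. The summed level of 9 seminal vesicle genes ran from 1.06 to 90500 RPM, and was 12600 or more in libraries 5, 6, 9, 10, 12, 13 and 15 and 2670 or less in the others. The 10 genes of prostate luminal epithelium summed to 2300 to 34400 RPM and were lowest in library 5.

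At 10 weeks the RNA of these genes was concentrated in 1 library of each line. The 10 genes summed to 191 RPM in library 2 (WT-TRAMP), 171 in library 6 (A537T-TRAMP) and 221 in library 9 (KO-TRAMP), against 17.4 to 101 in the other 6. For 8 of the 10 genes these were the 3 highest libraries of that age. Myh4, the heavy chain of the fastest fibres, was at 0, 73.9 and 4.41 RPM in WT-TRAMP, at 0, 0 and 48.9 in A537T-TRAMP, and at 0, 0.947 and 90.2 in KO-TRAMP. Each line thus had 1 library with 462 to 1087 Myh4 reads beside libraries with 0 to 47. A count of 0 allowed a level of up to 0.229 RPM in library 1, 0.237 in library 4, 0.259 in library 5 and 0.245 in library 7 (3 reads, counting error only). Atp2a1, which returns calcium to the sarcoplasmic reticulum of fast fibres, was at 0, 20.1 and 1.03 RPM in WT-TRAMP, 0.158, 0 and 24.6 in A537T-TRAMP, and 0.0816, 0.602 and 22.0 in KO-TRAMP. Tnnt3, which ties the troponin complex to the thin filament, was at 0, 9.81 and 0.844 in WT-TRAMP, 0, 0.0865 and 8.57 in A537T-TRAMP, and 0.163, 1.29 and 13.1 in KO-TRAMP. The lowest of the 3 high libraries exceeded the next library of that age 19.5-fold for Atp2a1, 12.3-fold for Myl1, 11.1-fold for Myh4, 6.64-fold for Tnnt3 and 5.23-fold for Tnni2. The gap was narrow for the others, with 1.38-fold for Myh1, 1.23-fold for Ckm and 1.13-fold for Mylpf. For Mylpf it was smaller than the difference of the same WT-TRAMP library between the tables of both lines, which was 1.55-fold in library 11 (31 and 20 reads), so its order over the lines is uncertain. For the other 9 genes that difference was at most 1.17-fold in libraries with at least 10 reads. Myh2 and Acta1 did not have library 2 among their 3 highest. Acta1 was highest in library 5, at 90.5 RPM, where Myh4 had no read. Myh1 was at 13.8 RPM in library 4, which also had no Myh4 read.

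**Figure D1:**
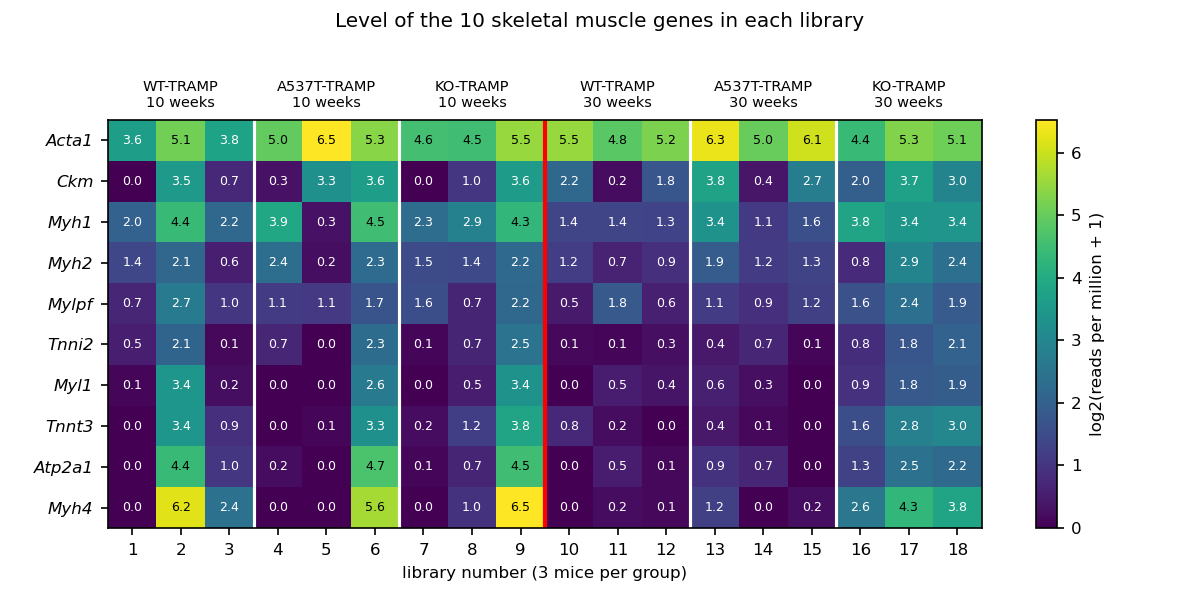
Level of each of the 10 genes (rows) in each of the 18 libraries (columns), as log2(RPM + 1), with the number in each cell and 3 libraries per group. Myh4, Atp2a1, Tnnt3, Myl1 and Tnni2 are highest in libraries 2, 6 and 9, with libraries 16, 17 and 18 next. Myh2, Mylpf and Tnni2 stay low even in these libraries, and the Acta1 row is bright in nearly every column.

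Neither line differed from WT-TRAMP at 10 weeks beyond this spread. Between KO-TRAMP and WT-TRAMP, 0 of the 10 genes passed limma's adjusted p of 0.05, and 0.0129% of the 15451 genes tested did. None of the 10 was under an unadjusted p of 0.05, against 6.64% of all genes, and edgeR and DESeq2 also called 0, against 0.0% and 0.526% of all genes (DESeq2 gave 3 of the 10 no adjusted p). The normalized count of Myh4 was 306 ± 486 (SD, n = 3) in WT-TRAMP and 336 ± 573 in KO-TRAMP, with a log2 fold change of -0.65 (SE 2.89). For Myh1 the means were 106 ± 116 and 109 ± 89.1, with a log2 fold change of 0.29 (SE 0.79), and for Acta1 they were 227 ± 150 and 332 ± 141, with 0.65 (SE 0.44). In this comparison 8 of 10 smooth muscle genes and 4 of 8 seminal vesicle genes tested were higher in KO-TRAMP at an unadjusted p under 0.05, with 0 past the adjusted threshold, and their part in the Acta1 values was not tested. The SD was as large as the mean or larger for Myh4 in both groups. The median log2 fold change of the 10 genes was 0.18, against -0.006 over all genes, and it moved to -0.88 without library 9 and to 1.49 without library 2.

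Between A537T-TRAMP and WT-TRAMP, 0 of the 10 genes passed, and 0.00648% of 15438 genes did. Acta1 alone was under an unadjusted p of 0.05, against 7.89% of all genes, and edgeR and DESeq2 called 0 of the 10, against 0.0% and 0.964% of all genes (DESeq2 gave 2 of the 10 no adjusted p). Acta1 was at normalized counts of 117, 353 and 131 in WT-TRAMP and 311, 1156 and 432 in A537T-TRAMP. The groups overlapped, as library 4 was below library 2. The log2 fold change of Acta1 was 1.61 (SE 0.58, adjusted p = 0.600 by limma). Myh4 had a log2 fold change of -2.04 (SE 3.07), with normalized counts of 275 ± 436 and 177 ± 306, and Myh1 one of -0.22 (SE 1.51). The median over the 10 genes was -0.18, against -0.008 over all genes, and ranged from -1.31 without library 6 (9 genes tested) to 1.02 without library 5. Its sign turned with the tool, to 0.30 with edgeR and 0.29 with DESeq2. In the same comparison 10 of 10 smooth muscle genes and 9 of 9 seminal vesicle genes were higher in A537T-TRAMP at an unadjusted p under 0.05, with none past the adjusted threshold. Their summed levels were 480 to 783 and 1.83 to 4.59 RPM in WT-TRAMP, against 1160 to 2860 and 487 to 90500 in A537T-TRAMP. Their part in the Acta1 values was not tested.

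At 30 weeks 9 of the 10 genes had a higher mean in the 3 libraries labelled KO-TRAMP than in WT-TRAMP of that age, and 2 of them, Myh1 and Myh4, passed the test. Myh1 was at normalized counts of 17.9, 18.2 and 17.1 in WT-TRAMP and 152, 106 and 104 in KO-TRAMP. The groups did not overlap, and the WT-TRAMP libraries were nearly level. The means were 17.7 ± 0.585 (SD, n = 3) and 121 ± 27.1, with a log2 fold change of 2.68 (SE 0.26, adjusted p = 0.0401 by limma). Myh4 was at 0, 1.92 and 1.14 in WT-TRAMP and 57.6, 204 and 143 in KO-TRAMP, again without overlap. The means were 1.02 ± 0.965 and 135 ± 73.6, with a fitted log2 fold change of 6.03 (SE 0.68, adjusted p = 0.0450 by limma). Since the 3 WT-TRAMP libraries held 3 Myh4 reads in all, against 473 in KO-TRAMP, the ratio of the levels, 141, had a 95% counting interval from 47.9 to 686. The share of genes called over the whole table was 0.213% of 16900. Both calls were lost without library 10, 11, 12, 17 or 18 and without libraries 12 and 18 together (adjusted p = 0.986 for each), whereas the log2 fold changes stayed at 2.75 and 6.00 without the pair. Those fits called 0, 2, 0, 13 and 0 of all genes, in that order, and 0 without the pair.

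Another 4 of the 10 genes had no overlap between the groups without passing the adjusted threshold. Tnnt3 was at normalized counts of 7.83, 1.92 and 0 in WT-TRAMP and 22.6, 66.3 and 77.3 in KO-TRAMP, with a log2 fold change of 4.08 (SE 0.95, adjusted p = 0.253 by limma). Atp2a1 was at 0, 4.80 and 1.14 against 16.5, 48.1 and 39.7, with 3.82 (SE 0.86, adjusted p = 0.245). Tnni2, the inhibitory subunit of fast troponin, was at 1.12, 0.960 and 2.28 against 9.26, 25.5 and 34.5, with 3.16 (SE 0.73, adjusted p = 0.253). Library 16 was the lowest KO-TRAMP library for each of them and for Myh4. Myl1, the essential light chain of fast fibres, was at 0, 4.80 and 3.42 against 10.3, 27.0 and 30.3, with 2.86 (SE 0.90, adjusted p = 0.332). These 4 genes and Myh4 were under 10 normalized counts in all WT-TRAMP libraries, so they passed the filter on low values through the KO-TRAMP libraries. In all, 6 of the 10 genes were higher without overlap, against 10.8% of all genes, and the same 6 were under an unadjusted p of 0.05, against 13.5%. All of the 6 but Myh1 passed the filter in that way, so these counts are a description only. edgeR called 1 of the 10 (Myh1, adjusted p = 0.0472), with 0.0888% of all genes called, and DESeq2 called 5, with 4.77%.

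The remaining 4 genes overlapped between the groups. Myh2 was at normalized counts of 14.5, 6.72 and 10.3 in WT-TRAMP and 8.23, 72.2 and 45.9 in KO-TRAMP, with a log2 fold change of 1.52 (SE 0.84, adjusted p = 0.427 by limma). Ckm, which regenerates ATP from phosphocreatine, was at 41.4, 1.92 and 27.4 against 34.0, 132 and 73.1, with 2.21 (SE 1.09, adjusted p = 0.401). Mylpf, the regulatory light chain, was at 4.48, 29.8 and 5.70 against 23.7, 45.2 and 29.2, with 1.64 (SE 0.75, adjusted p = 0.386). In each of the 3 genes at least 1 WT-TRAMP library lay above the lowest KO-TRAMP library. Acta1 was at 513, 323 and 423 against 234, 412 and 359, and was the only one of the 10 with a lower mean in KO-TRAMP, with a log2 fold change of -0.34 (SE 0.27, adjusted p = 0.544). The median over the 10 genes was 2.77, against 0.01 over all genes. It ranged from 2.25 (8 genes tested, without library 17) to 3.02 without 1 library, and was 2.75 over the 9 genes tested without libraries 12 and 18. Myh4, Tnnt3, Atp2a1, Myl1 and Tnni2, part of this median, passed the filter on low values only through the KO-TRAMP libraries. Without that filter the median of the 10 was also 2.77, against 0.008 over all genes. In bulk tissue, a larger number of muscle fibres and more RNA per fibre cannot be told apart, and the part of other cells was not tested.

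**Figure D2:**
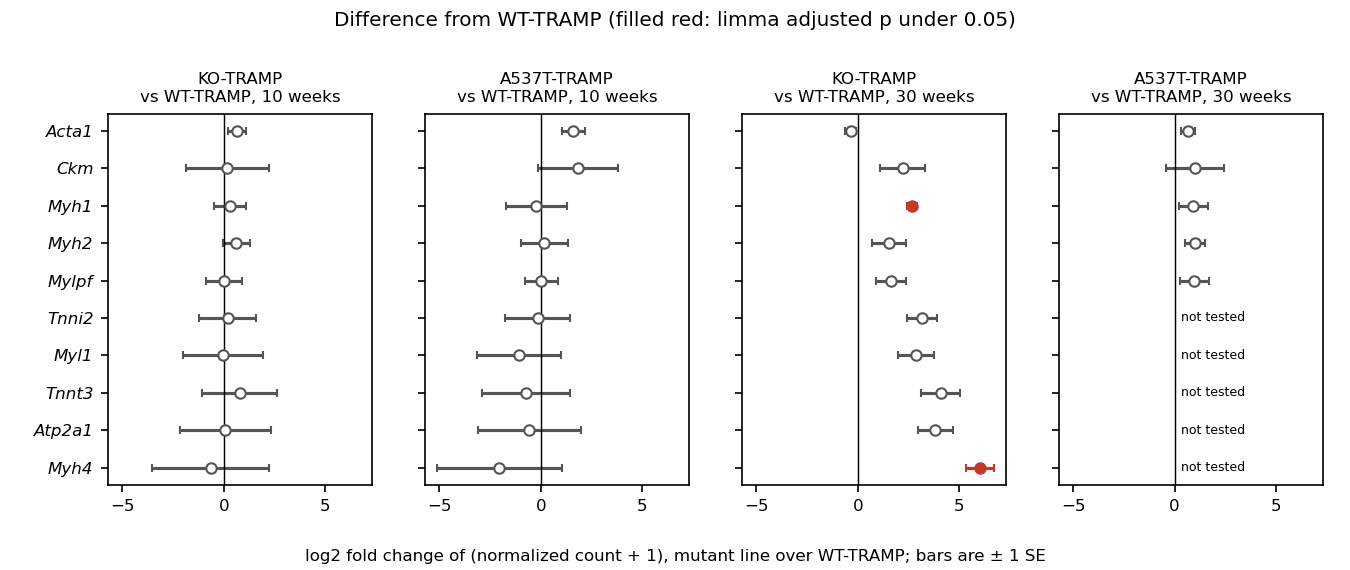
Log2 fold change of (normalized count + 1) of each gene in each mutant line over WT-TRAMP of the same age, with bars of 1 SE (3 libraries per group). Filled red points, Myh1 and Myh4 in KO-TRAMP at 30 weeks, passed limma's adjusted p of 0.05, the bars at 10 weeks reach across 0 for most genes, and 5 genes were too low to be tested in A537T-TRAMP at 30 weeks.

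Markers of other cell types moved in the same comparison. All 4 macrophage genes had higher means in KO-TRAMP, Lyz2 passed the test, and their summed level was 184 to 216 RPM against 54.8 to 79.9 in WT-TRAMP. All 5 endothelial genes had higher means, 0 passed, and they summed to 53.1 to 301 against 33.4 to 42.8. Adipose genes summed to less, with 32.0 to 62.3 against 68.2 to 165 and 0 past the threshold. Brown adipose genes did too, with 4.22 to 6.34 against 10.3 to 33.4, and Ucp1, the uncoupling protein of brown fat, fell past the threshold. In A537T-TRAMP at 30 weeks both lists were also below WT-TRAMP, at 22.2 to 33.4 and 3.86 to 5.06 RPM. The smooth muscle genes summed to 775 to 4030 against 1530 to 2780, with 0 of 10 past the threshold and a median log2 fold change of 0.05. Neuroendocrine genes summed to 1260 and 801 RPM in libraries 17 and 18, 26.1 in library 16, and 27.8 to 236 in WT-TRAMP. The part of these cells in the values of the muscle genes was not tested.

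In A537T-TRAMP at 30 weeks 5 of the 10 genes were too low to be tested. Myh4 was at normalized counts of 15.6, 0 and 1.99 in A537T-TRAMP and 0, 1.79 and 1.07 in WT-TRAMP. Myh4, Tnnt3, Atp2a1, Myl1 and Tnni2 had a mean under 10 and were not tested. None of the other 5 passed limma's test, edgeR or DESeq2, which called 0.0%, 0.0% and 1.02% of all genes, with 16261 tested by limma. None of the 5 was under an unadjusted p of 0.05, against 7.21% of all genes. Myh2 was the only one of the 10 without overlap, at 13.7, 6.28 and 9.60 in WT-TRAMP and 31.1, 14.3 and 16.9 in A537T-TRAMP, with a log2 fold change of 0.99 (SE 0.49, adjusted p = 0.720 by limma). Of all genes, 7.36% were higher in A537T-TRAMP without overlap. The median log2 fold change of the 5 genes was 0.97, and 0.86 without library 12. Without the filter on low values it was 0.95 over all 10 genes. The other 4 log2 fold changes were 0.92 for Myh1 (SE 0.72), 0.65 for Acta1 (SE 0.35), 1.01 for Ckm (SE 1.43) and 0.97 for Mylpf (SE 0.73). Within the group, library 13 stood above libraries 14 and 15 for Myh1, with normalized counts of 107, 13.1 and 21.9, and for Acta1, with 913, 358 and 726.

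Whether the effect of a line differed between the ages was tested for each gene. For KO-TRAMP, 0 of the 10 genes passed, as did 0.0% of 16431 genes in limma, and 1 of the 10 was under an unadjusted p of 0.05, against 13.1% of all. That gene was Myh1, with a log2 difference between 30 and 10 weeks of 2.39 (SE 0.97, adjusted p = 0.346 by limma). For Myh4 the difference was 6.68 (SE 3.53, adjusted p = 0.427), where the SE carries the spread between the 10-week libraries. For A537T-TRAMP, 0 of 9 genes tested passed, 0.0% of 15941 genes did, and 0 of the 9 were under an unadjusted p of 0.05, against 6.36% of all. The higher Myh1 and Myh4 of KO-TRAMP at 30 weeks were thus not shown to be particular to that age.

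The 10 genes did not vary as 1 block over the 18 libraries. Myh4, Tnnt3, Atp2a1, Myl1 and Tnni2 each had a Pearson r of 0.93 to 0.96 with the mean of the other 9 genes on the log2(RPM + 1) scale (Spearman rho 0.70 to 0.83), and 0.89 to 0.94 without libraries 9 and 2, which lay farthest from the median. Acta1 had an r of 0.15 with the other 9 (rho 0.16) and of 0.78 with the mean of 10 smooth muscle genes (rho 0.75, and 0.83 without the 2 farthest libraries). Ckm had 0.68 with the other 9 (rho 0.59) and 0.64 with the smooth muscle genes (rho 0.62), and 0.61 and 0.82 without the 2 farthest libraries. These correlations describe 18 libraries that share groups of 3 and, for the myosin genes, part of their sequence. Acta1 was at 90.5, 79.4, 65.8 and 44.9 RPM in libraries 5, 13, 15 and 10. In the same libraries Myh4 was at 0, 1.35, 0.181 and 0, and the 10 smooth muscle genes summed to 2860, 3340, 2390 and 2780 RPM. Their seminal vesicle genes summed to 90500, 54500, 26500 and 43500, and the part of either tissue in the Acta1 level was not tested. Ckm was at 8.56, 12.5, 5.70 and 3.63 there, and at 10.6, 11.4 and 11.1 in libraries 2, 6 and 9. Acta1 made up 89.9% of the summed RPM of the 10 genes in library 5 and 85.4% in library 10, but 17.9% in library 2. It also made up 86.0% in library 14 and 82.0% in library 11, where the seminal vesicle genes summed to 3.13 and 1.06 RPM. In library 17, with the highest smooth muscle sum (4030 RPM), Acta1 was at 38.1 RPM and made up 36.2%. In library 9 it was at 44.7 RPM, beside Myh4 at 90.2. Per kilobase of exon, Acta1 had the highest median level of the 10 over the libraries, 21.9 RPM per kilobase (7.51 to 58.9), followed by Mylpf at 1.21 (0.369 to 5.22). Myh4 had the lowest median, 0.0937, and was highest in library 9.

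**Figure D3:**
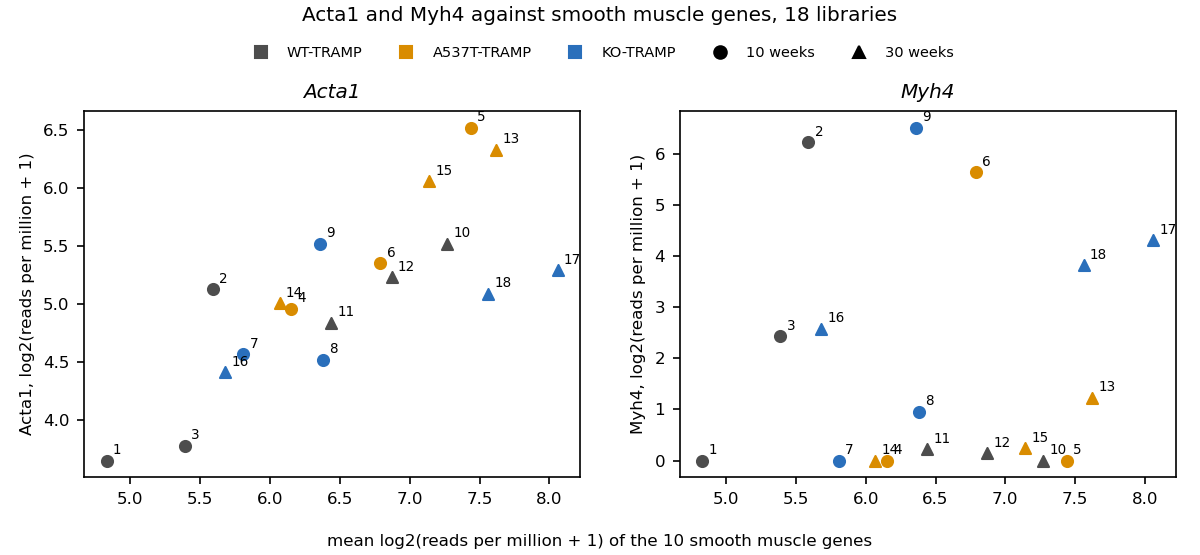
Acta1 (left) and Myh4 (right), as log2(RPM + 1), against the mean of 10 smooth muscle genes on the same scale, with 1 point per library, numbered. Acta1 runs upward with the smooth muscle genes (r 0.78), while Myh4 is high in libraries 2, 6 and 9 at low to middle smooth muscle levels and at or near 0 in library 5.

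The myosin heavy chains also differed in their proportions. Shares were taken over Myh1, Myh2, Myh4 and the slow chain Myh7, per kilobase of exon, in the 9 libraries with at least 100 reads over the 4 genes, with Wilson 95% intervals that cover counting error only. Myh4 held 76.7% (73.9 to 79.3) in library 2, 66.7% (63.2 to 70.1) in library 6 and 81.0% (78.8 to 83.0) in library 9. In KO-TRAMP at 30 weeks it held 27.6% (22.2 to 34.2), 55.7% (51.3 to 59.8) and 51.0% (45.1 to 56.7) in libraries 16, 17 and 18. Libraries 2, 6 and 9 are those in which Myh4 was highest, so their shares are a description, and the mice of the groups were not compared. Myh1 took the larger share in library 16, 69.1% (62.3 to 74.7). In libraries 4, 8 and 13 Myh1 held 79.1% (73.6 to 84.1), 71.3% (61.8 to 79.0) and 70.7% (63.7 to 76.7). Myh4 held 0% there in library 4, where 0 of 227 reads allowed a share of up to 1.66%, 11.3% (6.72 to 19.1) in library 8 and 10.9% (7.03 to 15.9) in library 13. The heavy chain reads of these 3 libraries, from different lines and ages, were thus mostly Myh1. Myh2 ranged from 2.76% in library 9 to 20.9% in library 4. Myh7 had 13 reads over the 18 libraries and at most 3 in any.

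**Figure D4:**
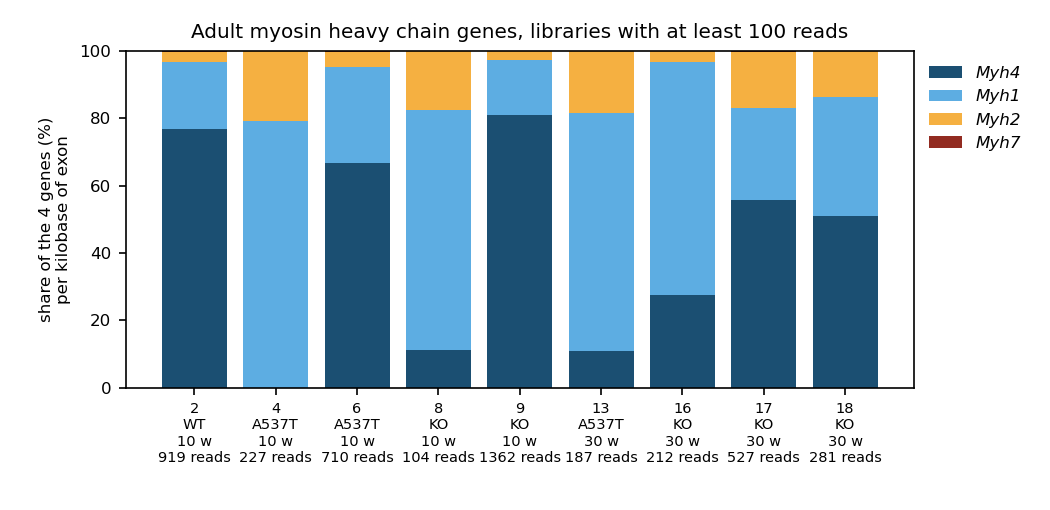
Stacked shares, in percent per kilobase of exon, of Myh4, Myh1, Myh2 and Myh7 in the 9 libraries with at least 100 reads over these genes, with the line, age in weeks (w) and number of reads under each bar. Myh4 fills most of the bars of libraries 2, 6 and 9, Myh1 those of libraries 4, 8, 13 and 16, and Myh7 is too low to see.

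Genes of slow, cardiac and developing muscle were low in most libraries. Of the slow-fibre paralogs, Myl2 was at most 0.316 RPM, Myl3 at most 0.996, Tnni1 at most 0.281 and Tnnt1 at 0.480 to 2.96. The 9 myogenic regulators and satellite cell genes summed to 0.163 to 1.16 RPM, and Musk, a receptor kinase of the neuromuscular junction, was their highest member at 1.07 in library 16. Myh8, the perinatal heavy chain, was at 8.36, 5.19 and 5.37 RPM in libraries 16, 17 and 18, at 3.94, 5.82 and 7.06 in libraries 2, 6 and 9, and at most 0.427 in the other 12. Its log2 fold change in KO-TRAMP at 30 weeks was 5.40 (SE 0.75, adjusted p = 0.0749 by limma). Myh8 was at most 0.295 RPM in WT-TRAMP of that age, so it passed the filter on low values through the KO-TRAMP libraries. How much sequence Myh8 shares with Myh1, Myh2 and Myh4 was not measured, so its reads may not be fully told apart from theirs. The embryonic chain Myh3 was at 2.36 and 1.06 RPM in libraries 17 and 18 and at most 0.212 elsewhere, and cardiac actin, Actc1, was at 4.38 and 2.02 there and at most 1.83 elsewhere. The paralogs of other tissues were higher. Smooth muscle actin, Acta2, was at 95.4 to 556 RPM, Atp2a2, the pump of slow and non-muscle cells, at 269 to 395, and the brain-type creatine kinase Ckb at 4.12 to 270. Ckmt2, the mitochondrial creatine kinase of striated muscle, was at 1.60, 1.69 and 1.08 in libraries 2, 6 and 9 and at most 0.877 elsewhere.

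The lists of other muscle genes gave few calls. Of 33 genes listed as fast-fibre partners, which are not all particular to fast fibres, 14 (KO-TRAMP) and 16 (A537T-TRAMP) were tested at 10 weeks. At 30 weeks 16 and 11 were tested, and 0 passed in any of the 4 comparisons. In KO-TRAMP at 30 weeks 13 of the 16 had a higher mean, with a median log2 fold change of 0.78 against 0.01 over all genes, and 5 were higher and 1 lower at an unadjusted p under 0.05, against 13.5% of all genes in either direction. The lower one was Mybpc1, with a log2 fold change of -2.21 (SE 0.59, adjusted p = 0.307 by limma), and the 5 higher ones were Ryr1, Xirp2, Mybpc2, Trdn and Klhl41. Partners low in WT-TRAMP could pass the filter on low values only through the KO-TRAMP libraries. The counts and the median of this list are thus a description only. Ryr1, the calcium release channel of the sarcoplasmic reticulum, had 4.17 (SE 0.58, adjusted p = 0.0749), and Xirp2 had 4.44 (SE 0.74, adjusted p = 0.124). Klhl41 was at 132 and 75.4 RPM in libraries 17 and 18, 0.890 in library 16 and at most 2.03 in the 15 others, unlike the members. Fbxo32, the highest of the list in most libraries, was at 105 to 510 RPM. Tnnc2, the calcium-binding subunit of fast troponin, lay outside the rule for naming genes and was chosen after its values were seen. It was at 13.1, 16.7, 8.68 and 7.35 RPM in libraries 5, 13, 15 and 10, where Acta1 was high, and at 5.44, 8.36 and 11.5 in libraries 2, 6 and 9. Of the 8 slow-fibre genes 3 were tested in KO-TRAMP at 30 weeks, and of the 7 cardiac genes 4, with 0 past the threshold in either. In libraries 17 and 18, where the neuroendocrine genes were high, the slow-fibre list summed to 47.1 and 24.8 RPM and its member Myh7b, a myosin heavy chain, was at 33.4 and 17.3. The slow-fibre list summed to at most 8.12 in the 16 others. The cardiac list summed to 54.6 and 42.6 in libraries 17 and 18 and to at most 26.8 elsewhere, with Tnnt2, cardiac troponin T, at 24.9 and 18.8. The part of neuroendocrine cells in these values was not tested.

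Genes whose levels were most like the mean of the 10, among 13514 compared over the 18 libraries, included Xirp2 (Pearson r 0.973), Mybpc2 (0.948), Ryr1 (0.934), Myh8 (0.877), Cmya5 (0.820), Actn3 (0.796), Ldb3 (0.793), Pygm (0.779) and Gsdmc3 (0.763). Myh8 is on the list of developmental myosins. Without libraries 9 and 2 the r was 0.964 for Xirp2 and 0.589 for Actn3. Ryr1 was at most 18.8 RPM, in library 9, and Pygm, the muscle glycogen phosphorylase, at most 15.1 in the same library.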

How the data were processed

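The libraries were described as RNA from the ventral and lateral lobes of 18 mice. According to the sources used here, the authors trimmed reads with Trim Galore 0.4.1 and cutadapt 1.18, aligned them with STAR 2.7.3a to GRCm38.p6, quantified genes by strand with Salmon and normalized with DESeq2 1.26. The 4 tables deposited by the authors hold normalized counts (a signal scaled by 1 size factor per library), each of 1 mutant line and WT-TRAMP at 1 age. Another 4 tables hold the authors' comparisons (fold changes and p-values) and were not used. Columns were given to groups by the tables that share them and carry no replicate number.

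Values were whole multiples of 1 read in every library (100.0% of values, within 1e-06 of the value or of 1 read), and reads were recovered by dividing by that step. RPM (reads per 1000000) used the recovered total, with WT-TRAMP taken from the KO-TRAMP table, and tests stayed within a table because the reads recovered for the same WT-TRAMP library differed by gene between tables (1.55-fold for Mylpf in library 11). The main test was limma 3.58.1 (R 4.3.3, trended eBayes) on log2(normalized count + 1), for genes with a mean of at least 10, with Benjamini-Hochberg adjustment over all genes and a threshold of 0.05. Fold changes on this scale understate the change of low genes. The line by age test used both tables of a line. The reads were also tested with edgeR 4.0.16 and DESeq2 1.42.0, and each library was left out in turn. The main limma fit, edgeR, DESeq2 and the line by age test were tried on simulated counts, the other settings were not. The simulated counts had less spread than the muscle genes at 10 weeks, so they do not cover the spread of these genes. P-values measure the spread between these mice. Of 55469 identifiers, 55107 had a symbol. The text names the 10 genes, their paralogs, list genes that passed or were highest, and the 10 genes most like them, of which 1 is not reported here. The 10 genes and all lists were chosen with earlier results of these data known.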

Additional observations from a re-analysis of the deposited data

Results flagged for a closer look

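Acta1 was higher than the WT-TRAMP mean in all 3 KO-TRAMP libraries at 10 weeks and lower in all 3 at 30 weeks. The log2 difference between the 2 effects was -0.99 (SE 0.59, adjusted p = 0.472 by limma). Mylpf was lower than the WT-TRAMP mean in all 3 A537T-TRAMP libraries at 10 weeks and higher in all 3 at 30 weeks, with a log2 difference of 0.95 (SE 1.12, adjusted p = 0.801 by limma). That WT-TRAMP mean at 10 weeks was carried by library 2, with normalized counts of 6.43, 57.6 and 10.1 in WT-TRAMP and 12.2, 14.4 and 24.1 in A537T-TRAMP, and the fitted log2 fold change at 10 weeks was 0.03 (SE 0.80), so the fit did not bear out a change of direction. Neither difference passed the test.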

How the results depend on the processing

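The call of 2 genes in KO-TRAMP at 30 weeks depended on the processing. It was 1 with a pseudocount of 0.5 and 1 with a pseudocount of 10, when 42 and 39 of 16900 genes were called. It was 1 with edgeR (0.0888% of all genes called) and 5 with DESeq2 (4.77%). Without libraries 12 and 18, a setting chosen after seeing the data, it was 0, with 0 of 16889 genes called. Without 1 library it ranged from 0 to 6. The 6 came without library 16, when 3064 of 16950 genes were called. Without library 10, 11, 12, 17 or 18 the genes called in all were 0, 2, 0, 13 and 0. The median log2 fold change of the 10 genes there was 1.47 with a pseudocount of 10. Over the genes tested it ranged from 2.25 (8 genes, without library 17) to 3.02 without 1 library, and stayed above 0 in every setting run. Myh1 was 2.75 without libraries 12 and 18. Without 1 library the medians over the genes tested ranged from -0.88 to 1.49 for KO-TRAMP at 10 weeks. For A537T-TRAMP they ranged from -1.31 (9 genes) to 1.02 at 10 weeks and from 0.21 (4 genes) to 1.20 at 30 weeks. The counts of genes passing stayed at 0 in these comparisons and in both tests of the difference between ages. At 10 weeks the log2 fold change of Myh4 in KO-TRAMP was 0.17 with edgeR, and that of Myh1 in A537T-TRAMP was 0.12 with a pseudocount of 10, 0.55 with edgeR and 0.53 with DESeq2. Without 1 library these ranged from -3.38 to 1.65 (Myh4, KO-TRAMP), -1.31 to 1.59 (Myh1, A537T-TRAMP), -5.06 to 0.23 (Myh4, A537T-TRAMP) and -0.34 to 1.15 (Myh1, KO-TRAMP), and that of Ckm in A537T-TRAMP at 30 weeks from -0.10 to 2.48. The cause of these changes was not tested. Shares of the heavy chains without division by length, or with WT-TRAMP from the other table, stayed within their counting intervals. No paired analysis was possible because the columns carry no replicate numbers. Levels under 3 reads (0.202 to 0.320 RPM) were not measurable at this depth.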
